A study of Glycine max with 6 samples.

Results

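Spot brightness was ranked in RNA of iron-sufficient soybean roots, and the brightest and the dimmest clones with a gene name are described here. The members are 200 cDNA clones, the 100 with the highest and the 100 with the lowest mean rank, out of 847 ranked clones with 1 gene symbol. They were selected on the measured signals themselves, so their brightness is a description and was not tested. The array named 1106 clones for 527 genes. Of these, 259 were left unranked because they lacked a usable spot in at least 1 replicate. The 847 ranked clones stand for 471 genes, the top 100 for 83 genes and the bottom 100 for 93 genes. Over the whole series, 13939 of 18361 clones were ranked.

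The RNA came from 2 near-isogenic soybean lines. IsoClark is Fe-inefficient and was bred by repeated backcrossing to Clark, which is Fe-efficient. Seedlings of both lines were moved from vermiculite to hydroponics with sufficient iron, and the plants of 1 hydroponic unit were pooled to give the root RNA of a replicate. Each of 3 biological replicates was hybridized on 2 arrays with the dyes exchanged, 3 arrays carrying IsoClark in Cy3 with Clark in Cy5 and 3 arrays carrying IsoClark in Cy5 with Clark in Cy3. These 6 arrays give 12 channels. In such bulk RNA, fewer cells of a type and less RNA per cell cannot be told apart.

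Soybean takes up iron by acidifying the soil around its roots and reducing ferric iron at the root surface. Inside the cell, ferritin stores iron and metallothioneins bind metal ions. Legume roots are also known for isoflavonoids, which are made from phenylalanine through chalcone synthase, chalcone isomerase and isoflavone synthase and act in signalling to rhizobia and in defence. Roots assimilate nitrogen into asparagine, the main form in which many legumes carry it to the shoot.

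The rank of a spot is its signal mean minus the median of its local background, ranked within its channel over all usable cDNA spots. It is written as a percentile, from 0 for the dimmest to 100 for the brightest spot. A clone's value is the mean over its usable channels, so a replicate with both arrays usable weighs more than a replicate with 1, and the error is the SD over the 3 replicates. Brightness also depends on how much DNA was printed, on the length of the cDNA and on related transcripts that hybridize to it, so the order is one of spot signals and not of transcripts per length. Over all ranked clones, the mean percentile and the measured spot area had a Spearman correlation of 0.57. The median area was 91.5 in the top 100 and 70.2 in the bottom 100. Whether the area affects the rank or follows from it was not tested.

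Between 10404 and 15127 cDNA spots per channel were usable. The same clones ranked alike in the 2 lines on 1 array, with Spearman correlations of 0.95 to 0.99 over clones. They ranked less alike when 1 line was measured on the 2 arrays of a swap pair, where the correlations were 0.33 to 0.84. The replicate 2 array with IsoClark in Cy5 stood apart: its mean correlation with the other 5 arrays was 0.433, against 0.674 to 0.749 for those arrays. Its labelling text also names the dyes the other way round from its label field, and the label field was used here. Without this array the correlations within a swap pair were 0.70 to 0.84, and of the top and bottom 100 there were 78 and 97 clones left with a usable array in each replicate.

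**Figure D1:**
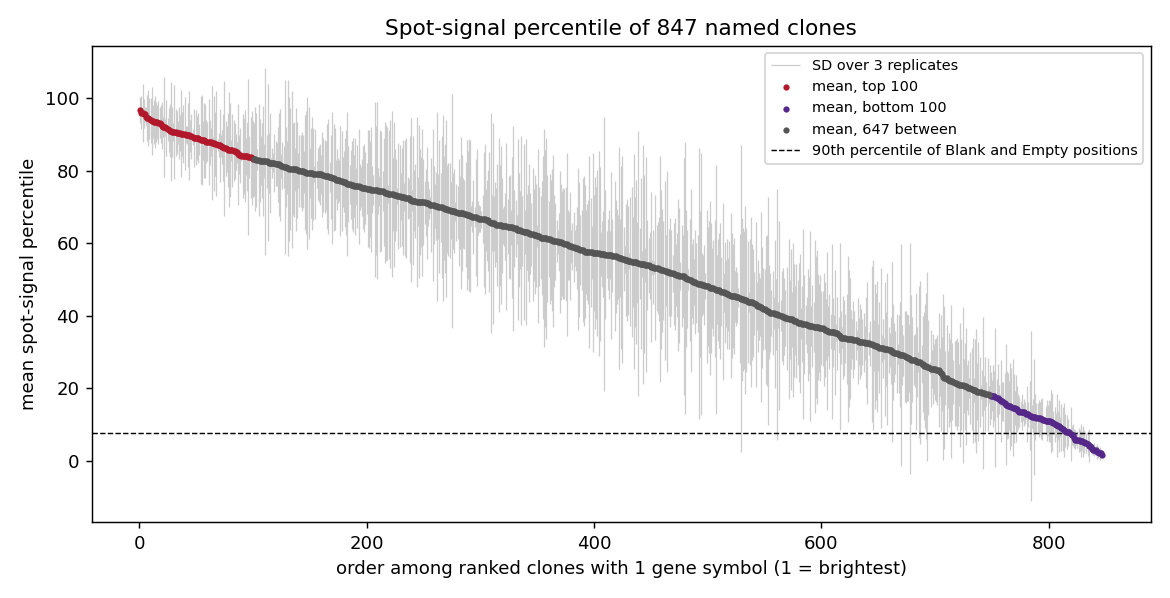
Mean spot-signal percentile (vertical axis, 0 dim to 100 bright) of the 847 ranked clones with 1 gene symbol in their order (horizontal axis), with grey bars for the SD over 3 replicates and a dashed line at the 90th percentile of blank and empty positions, 7.69. The order falls without a step at either limit of 100, and the bars are widest in the middle.

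The top 100 had mean percentiles between 83.3 and 96.8, with a median of 89.1. The bottom 100 lay between 1.6 and 18.1, with a median of 11.1. All 847 named clones had a median of 56 and all ranked clones 51.4. In units of scanner signal above background, the median clone of the top 100 stood at 20470 and that of the bottom 100 at 571.9. The replicates of a member differed by a median SD of 6.4 percentile points in the top 100 and 4.4 in the bottom 100, against 12.4 among the 647 clones between them. A spread of this kind is bounded at both ends of the scale.

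The limits fell within this error. CDC48, an ATPase that pulls ubiquitinated proteins apart, was the last clone of the top 100 at 83.3 ± 10.5 (SD, n = 3), next to LOC100037461 at 83.6 ± 13. Just outside were clones of CGS2, cystathionine gamma-synthase of methionine synthesis, and of PIP2-6, a plasma membrane aquaporin, both at 83.2 with SDs of 10.1 and 14.4. At the dim limit, LOC547581 at 18.1 ± 8.3 and N-36A, a nodulin, at 18 ± 6.4 were inside. UGT1 at 18.2 ± 2.3 and LOC547630 at 18.3 ± 10.1 were outside.

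All usable channels of every top clone were more than 2 background SDs above the local background, and 45 of the 100 clones had at least 1 channel with a saturated spot, so the order at the bright end is compressed. In the bottom 100, 31.6% of the channels were above that level, and 10 clones reached it in no channel. The positions that the print layout names Blank or Empty had a median percentile of 1.41 and a 90th percentile of 7.69. No clone of the top 100 and 29 of the bottom 100 lay at or below 7.69. The Blank positions alone had a 90th percentile of 5.36, and 18 of the bottom 100 lay at or below it. Of the 29 clones, 9 were above background in no channel and 20 in at least 1 channel. With the spots that the image program flagged as empty left out, only 5 of the bottom 100 clones could still be ranked.

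The brightest named clones were of varied function. LOC548038, which the annotation names by number only, led with percentiles of 97.8, 100 and 92.9 in the IsoClark replicates and 99.4, 100 and 93.8 in the Clark replicates. SALI5-4A, a gene first found by its induction under aluminium in soybean roots, followed with 99.1, 88.1 and 97.5 in IsoClark and 99.7, 93.7 and 98.6 in Clark. Both clones were in the upper part of the scale in every replicate of both lines, and the ranges of the lines overlapped. Within each replicate, SALI5-4A read lower in IsoClark and LOC548038 read lower or equal. The line test below called neither clone. A second SALI5-4A clone stood at 89.2 ± 8 and 2 further clones at 67.8 and 61.

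Clones of the isoflavonoid and phenylpropanoid list held 3 of the 7 highest places. IFS1, isoflavone synthase, read 87.1, 97.3 and 98.9 in the IsoClark replicates and 95.9, 98.4 and 98.9 in the Clark replicates. CHI3A1, from the chalcone isomerase family, read 91.7, 97.8 and 97 in IsoClark and 95.5, 97.3 and 96.2 in Clark. IFS2, the other isoflavone synthase, read 94.7, 83.9 and 99.9 in IsoClark and 98, 91.3 and 100 in Clark. The ranges of the 2 lines overlapped in all 3 genes. Within replicates, IFS2 read lower in IsoClark each time, IFS1 read lower or equal, and CHI3A1 read higher in replicates 2 and 3. The line test below called none of these clones. A second IFS1 clone was also in the top 100, at 89.1 ± 6.1. Further clones of CHI3A1 at 65.1 and 43.9 and a further clone of IFS2 at 63.8 were not.

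Primary metabolism and nitrogen genes stood next to them. SAMDC, S-adenosylmethionine decarboxylase of polyamine synthesis, averaged 94.4 ± 5.6. AS2, an asparagine synthetase, read 86.6, 98.3 and 94.9 in IsoClark and 86.6, 98.1 and 95.8 in Clark. GDH1, glutamate dehydrogenase, averaged 93.3 ± 4.3. In AS2 the replicates lay farther apart than the lines, with replicate 1 lowest in both.

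The rest of the 25 brightest clones were LOC548046 (96.1), LOC547643 (95), AMS1 (94.6), STP (93.8), PM37 (93.7), LOC547822, NAC2 and LOC732582 (93.5 each), LOC547870 (93.4), ARF (93.3), LOC547742 (93), SRA2 (92.5), LOC547605 (92.1), LOXB1 and SCAM-2 (92 each), LOC732571 (91.8) and SRC2 (91.5). PM37 is a seed maturation protein, NAC2 a transcription factor of the NAC family, LOXB1 a lipoxygenase of oxylipin synthesis and SCAM-2 a calmodulin. In the top 100, 36 clones have only an LOC symbol, against 33 in the bottom 100 and 282 of all 847 named ranked clones.

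The dimmest named clones included genes that are thought of as abundant. RPL2, a protein of the large ribosomal subunit, read 5.9, 3.3 and 4 in the IsoClark replicates and 4, 2.9 and 3.5 in the Clark replicates. TUBB3, a beta-tubulin, read 1.1, 0.7 and 3.7 in IsoClark and 1.2, 5.2 and 4.4 in Clark. A clone of GAPC1, the cytosolic glyceraldehyde-3-phosphate dehydrogenase, averaged 6.2 ± 2.6. The means of RPL2 and TUBB3 lay below the 90th percentile of Blank positions, 5.36, and that of GAPC1 lay between it and the 7.69 of Blank and Empty positions together. The brightest clones of the same genes stood far above them, at 80.3 for RPL2, 59.6 for TUBB3 and 67.8 for GAPC1.

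Transcription factors held 8 places of the bottom 100 and seed genes 8, where these lists held 61 and 41 of the 847 named ranked clones. BZIP53B averaged 2 ± 1.7 and WRKY33 2.4 ± 1.7. CG-1, a beta-conglycinin of the seed, averaged 2.9 ± 1.1, and PM40, a seed maturation protein, 3 ± 1.8. A clone of PRX2, from the list of antioxidant enzymes, averaged 2.2 ± 0.8. The lowest of all was a clone of LOC547605 at 1.6 ± 0.7, followed by LOC547835 at 2 ± 0.9. Close to these stood H1 (2.5), LOC547474 (3.2), LOC547813 (4), SC-04 (4.2), LOC547658 (4.7), OAS-TL7 (4.9), which makes cysteine, and SNRK1 (4.9), a kinase of energy sensing. Each of these clones was dim in every replicate of both lines. Another clone of PRX2 stood far higher, at 76.3 ± 5.4.

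**Figure D2:**
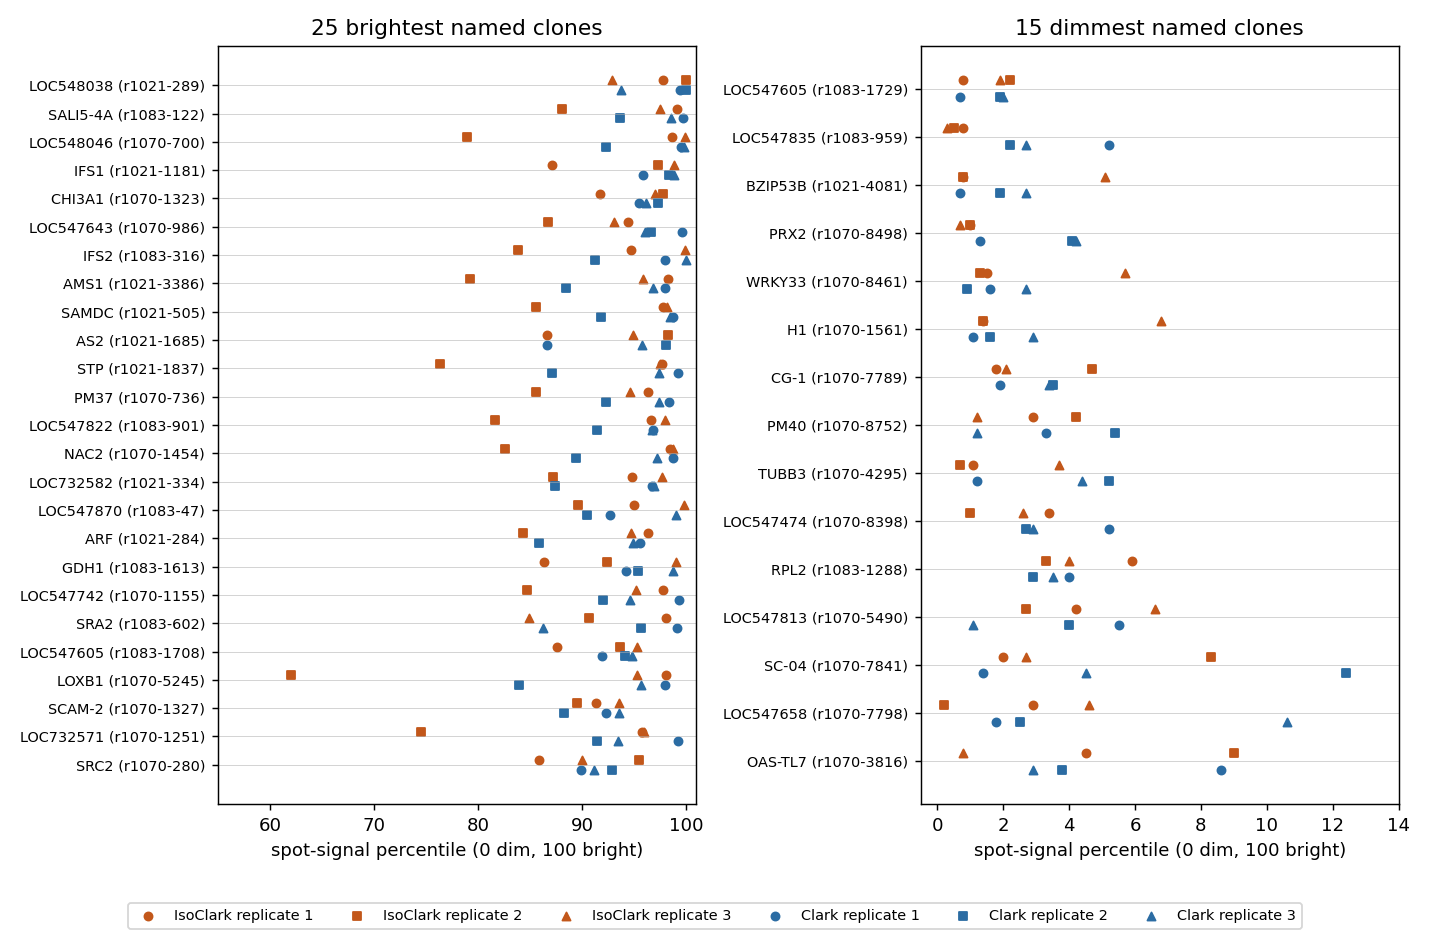
Spot-signal percentile (horizontal axes, 0 dim to 100 bright) of the 25 brightest and the 15 dimmest named clones, with orange symbols for IsoClark above blue symbols for Clark and 1 symbol shape per replicate. The replicate 2 squares of IsoClark lie farthest left in many bright clones, down to 62 for LOXB1, and the 2 horizontal axes cover different ranges.

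The choice of members was repeated on 2 replicates and read in the replicate that was left out. The 100 brightest clones of the other replicates had medians of 88.9, 81.6 and 89.8 when replicates 1, 2 and 3 were left out in turn, against 51, 55.7 and 56.5 for all named clones. The 100 dimmest clones had medians of 9.17, 10.8 and 11.9 in the replicate left out. The exact 100 were less stable than the level: 62, 36 and 51 of the brightest were also among the 100 brightest of the replicate left out, with the lowest count in replicate 2. For the dimmest the counts were 66, 67 and 66.

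The 5 members with the largest spread over replicates all turned on replicate 2. The clone of H4 among the dimmest averaged 12.4 ± 23.4 and read 1.5, 40.8 and 3.3 in IsoClark and 0.8, 44.3 and 2.6 in Clark. LOC100037460 averaged 83.8 ± 21.6, and read 52.2 and 58.2 in replicate 2 of IsoClark and Clark. KTI3, a Kunitz trypsin inhibitor of the seed, averaged 17.5 ± 19.2, SOYCTA 86.2 ± 18.7 and CHI2-A, from the chalcone isomerase family, 15.4 ± 16.7. In each of these clones replicate 2 lay toward the middle of the scale in both lines.

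**Figure D3:**
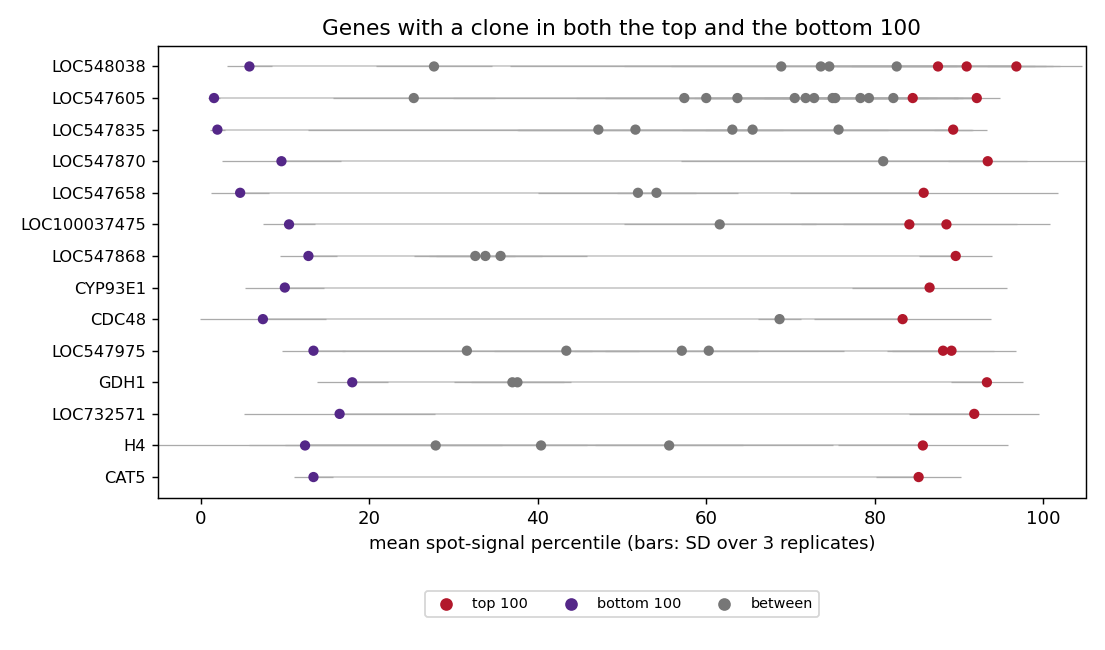
Mean spot-signal percentile (horizontal axis, bars show the SD over 3 replicates) of every ranked clone of the 14 genes that have a clone in both the top and the bottom 100, with red for top, purple for bottom and grey for between. Clones of LOC548038 span 5.8 to 96.8, and in most of these genes the bars are short beside the span of the clones. The dim clone of H4 has a long bar, with an SD of 23.4 where the H4 clones range over 73.3.

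Clones of 1 gene often lay far apart. Of the genes in the members, 14 had a clone in both the top and the bottom 100: CAT5, CDC48, CYP93E1, GDH1, H4, LOC100037475, LOC547605, LOC547658, LOC547835, LOC547868, LOC547870, LOC547975, LOC548038 and LOC732571. The 5 genes with the widest ranges among those with 3 or more ranked clones were LOC548038 (9 clones, range 91), LOC547605 (15 clones, 90.5), LOC547835 (7 clones, 87.4), LOC547870 (3 clones, 83.8) and LOC547658 (4 clones, 81.1). The 3 narrowest were LOC732582, whose 3 clones lay between 89.9 and 93.5, all in the top 100, LOX3 with a range of 5.5 and SS with a range of 6.8.

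These ranges were mostly wider than the replicate error. Among 88 genes with 3 or more ranked clones, the clones of 68 ranged more widely than the replicates, taken as the median replicate range of the same clones, and the median range was 48.6 percentile points between clones against 21.4 between replicates. A range grows with the number of values, and over the 44 genes with exactly 3 ranked clones, where both ranges cover 3 values, the clones of 32 ranged more widely, with medians of 45.6 between clones and 21.2 between replicates. The 2 clones of CAT5, a catalase that breaks down hydrogen peroxide, had means of 85.2 ± 5 and 13.4 ± 2.3. In CYP93E1, a cytochrome P450 of triterpenoid synthesis, the 2 clones had means of 86.5 ± 9.2 and 10 ± 4.7. For the 785 pairs of clones of 1 gene the median difference was 20.9 points, against 25.2 for all pairs of named clones. Whether the clones carry different parts or relatives of a gene was not tested.

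The set from which a clone came differed between the ends. The root unigene sets Gm-r1021 and Gm-r1083 hold cDNAs of root libraries, and Gm-r1070 holds cDNAs of seed coat, seedling, cotyledon, flower and pod libraries. The top 100 held 41 clones of Gm-r1021, 25 of Gm-r1083 and 34 of Gm-r1070, and the bottom 100 held 9, 17 and 74. The named ranked clones of these sets numbered 242, 226 and 364, so 16.9% of Gm-r1021, 11.1% of Gm-r1083 and 9.34% of Gm-r1070 reached the top, and 3.72%, 7.52% and 20.3% the bottom.

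Over all ranked clones, the root sets together had replicate medians of 51.1, 58.4 and 59.1, and Gm-r1070 had 43.2, 46.2 and 46.9. The root sets were higher in 3 of 3 replicates, by 10.7 ± 2.45 percentile points (SD, n = 3). The exact two-sided sign-flip test gave p = 0.25, the smallest that 3 replicates allow. The difference was 10.5 ± 2 in the IsoClark channels and 11 ± 3.18 in the Clark channels. It came mainly from Gm-r1021, which lay 17.5 ± 1.7 above Gm-r1070 (exact sign-flip p = 0.25). Gm-r1083 differed from Gm-r1070 by -1.68, 6.85 and 4.24 in the 3 replicates, with an exact p of 0.5. With the spots that were flagged as empty left out, the difference of the root sets was 4.3 ± 3.5.

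**Figure D4:**
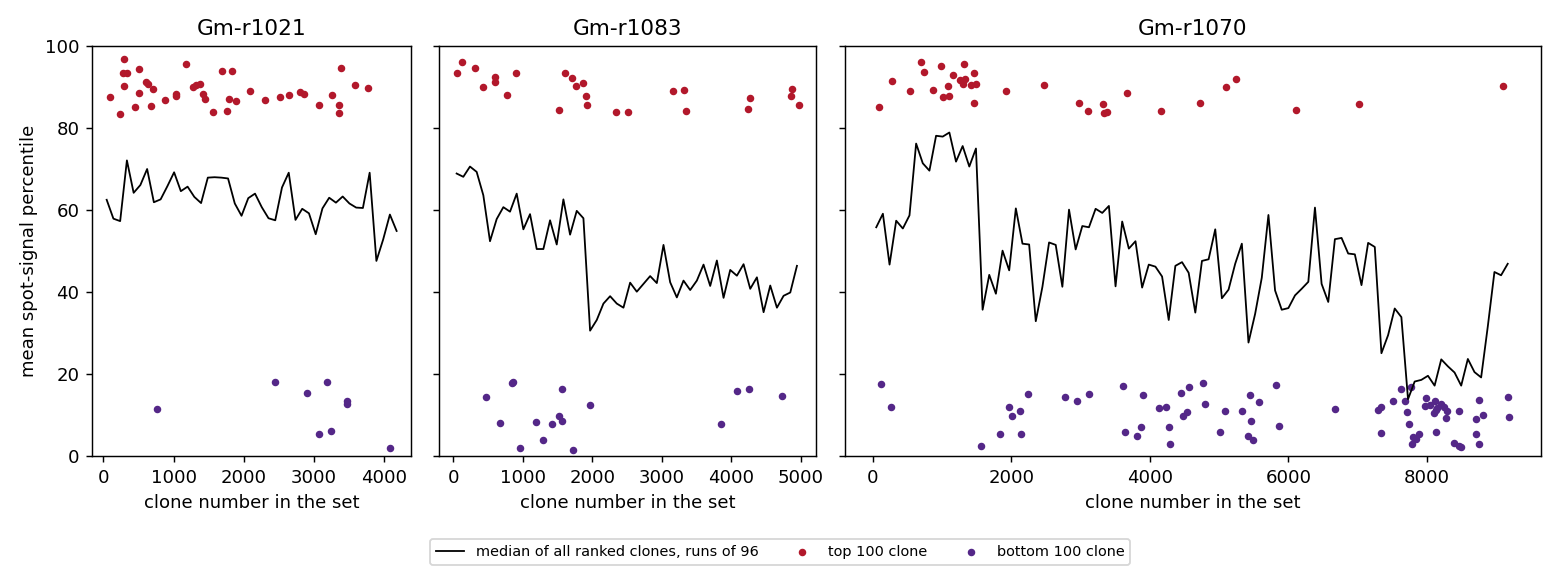
Clone number within each set (horizontal axes) against the mean spot-signal percentile (vertical axis), with a black line for the median of all ranked clones in runs of 96 numbers, red points for top 100 clones and purple points for bottom 100 clones. The line steps down after number 1920 of Gm-r1083, stands highest between 577 and 1536 of Gm-r1070 and lowest between 7681 and 8832.

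The level also changed in steps along the clone numbers of a set, and in Gm-r1070 the members followed. In Gm-r1070, the clones numbered 577 to 1536 had replicate medians of 77.1, 67.3 and 79.9, and 16 of their 47 named clones were in the top 100 and 0 in the bottom 100. The next clones up to 7680 had replicate medians of 43.4, 45.6 and 47, and 14 of 221 were in the top and 42 in the bottom. Clones 7681 to 8832 had medians of 15.2, 23 and 15.4, with 0 of 49 named clones in the top and 28 in the bottom. In Gm-r1083 the median was 59.7 up to number 1920 and 41 above it, but the members did not follow. Up to 1920, 14 of 132 named clones were in the top and 12 in the bottom. Above it, 11 of 94 were in the top and 5 in the bottom. The stretches were marked off after their values were seen. Their part in the ends of the ranking was not tested, and clone number, source library and printing plate cannot be told apart here.

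Markers of other tissues were spread over the whole scale. Of 41 ranked clones for seed storage, seed maturation and seed protease inhibitors, 11 lay in the bright range, above the 75th percentile of all ranked clones (a mean of 71.6), and 13 in the dim range, below their 25th percentile (a mean of 30.2), with a median of 56.5 (replicates 47.3, 49.8 and 55.8). GY2 and GY3, glycinin storage proteins, were in the top 100 at 90.4 ± 7.1 and 85.1 ± 3, and PM37 led the list at 93.7 ± 4.5. At the other end were 8 clones of this list, among them 3 of CG-1 and 2 of P34, an oil-body protein of the seed. Below 7.69 lay 3 clones of the list, of CG-1 and PM40, and the CG-1 clone at 5.5 was above the 5.36 of Blank positions alone. Among all 847 named clones, 28.7% lay in the bright range and 22% in the dim range. Their replicate medians were 51, 55.7 and 56.5, each above that of the seed list.

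Photosynthesis and chlorophyll genes, 15 clones of 7 genes, had a median of 64.8, with none at or below 7.69. CHLH, a subunit of the chelatase that inserts magnesium into the chlorophyll ring, was highest at 87.9 ± 3.8 and HEMB, an early enzyme of tetrapyrrole synthesis shared with haem, lowest at 21.9 ± 21.1. Nodulins, 7 clones of 4 genes, had a median of 77.8 (47.9 over clones usable on all 6 arrays), with NOD33 at 88.1 ± 5.4 in the lead and N-36A at 18 ± 6.4 last. Their replicate medians were lower, at 69.5, 70.5 and 74.7. Of the 7 clones, 3 were of SS, at 78.1, 77.8 and 71.3. No leaf, seed or nodule tissue is named in the labels, and whether these spots took up RNA of related root transcripts was not tested.

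Of 12 clones for ferritins and metal handling, 6 lay in the bright range and 0 in the dim range. Their median was 70.8, with replicate values of 73.1, 63.1 and 72.2, and 4 of the 12 lay below the median of all named clones. MET2, a metallothionein, was highest and read 91.2, 89.2 and 91.4 in IsoClark and 91.5, 85.6 and 91.9 in Clark. SFERH-2, a ferritin, read 86.9, 64.9 and 96 in IsoClark and 92.2, 79.5 and 95.4 in Clark. Both were in the top 100 and their line ranges overlapped. DMT1, a divalent metal transporter that was described in soybean nodules, stood at 78.3 ± 4.2, clones of SFERH-4 at 75 and 52, and MT2, another metallothionein, was lowest at 37.8 ± 10.5.

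Isoflavonoid and phenylpropanoid clones had a low median despite their leaders. The 43 clones had a median of 44.3, with 6 in the bright and 11 in the dim range. The top 100 held 4 of them, all of IFS1, IFS2 and CHI3A1. The bottom 100 held 7, among them 2 of CHS1, chalcone synthase, at 7.9 ± 4.8 and 11.5 ± 5.4, and clones of 4CL3 and 4CL4, the coenzyme A ligases of the shared early pathway, at 14.4 and 15.9. The replicate medians of the list were 32.9, 51.7 and 38.5.

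The 18 nitrogen assimilation clones had a median of 65, with replicate values of 62.2, 69.9 and 49.9, the last below the 56.5 of all named clones in replicate 3. They ran from AS2 at 93.9 ± 6.1 to GDH1 at 18 ± 4.2, and 6 further AS2 clones lay between 41.1 and 82.6. The 20 clones of lipoxygenases and allene oxide synthase had a median of 68 (replicates 72.5, 66.7 and 69.4), with 8 in the bright range and 0 in the dim range. LOXB1 led at 92 ± 13.8 and a clone of LOX7 was last at 33.4 ± 10.7.

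Of the signalling lists, 21 clones of calmodulins and 14-3-3 proteins had a median of 64.1, from SCAM-2 at 92 ± 2.4 to SGF14M at 11.9 ± 3.9. The 9 protein kinase clones had 64.5 (replicates 74.1, 48 and 77.8), from PK3 at 90 ± 2.3 to SNRK1 at 4.9 ± 0.5. The 61 transcription factor clones had 58.7 (replicates 56.2, 46.5 and 60.1), with 17 in the bright and 13 in the dim range. In replicate 2 the kinases and the transcription factors lay below the 55.7 of all named clones. DREB3, MYB112, BZIP55 and MYB56 joined NAC2 in the top 100, at 91.2, 90.2, 88.3 and 87.1. The bright range held 27.9% and the dim range 21.3% of the transcription factor clones. These shares were near the 28.7% and 22% of all named clones.

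Translation had a median of 71.2 for 13 clones, led by RPS13 at 88.4 ± 5.4. Its replicate medians were 68.4, 59 and 56.5, the last equal to that of all named clones in replicate 3. Water transport had a median of 68.5 for 7 aquaporin clones, with SPCP1 lowest at 26.2 ± 14.9. Cell wall loosening had 57.8 for 10 clones, from the cellulase CEL12 at 84.1 ± 10.4 to XTH1, a xyloglucan endotransglucosylase, at 17.9 ± 8.5. Sulfur assimilation had 54.2 for 17 clones, from SAMDC to OAS-TL7. The 32 clones of antioxidant enzymes and glutathione transferases had 53.1, led by the peroxidase PRX2B at 88.7 ± 4.3.

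Besides the 44.3 of the isoflavonoid and phenylpropanoid clones, the lowest medians were 48.3 for 7 clones of chaperones and protein turnover, 41.6 for 14 of fatty acid synthesis, 38.9 for 10 of cytochrome P450 and 38.3 for 6 of reference genes. The median of the reference genes was 18.6 without the replicate 2 array with IsoClark in Cy5 and 57.9 with empty-flagged spots left out. The median of the chaperones was 27.8 without flags, 20.9 without replicate 1 and 83.3 over clones usable on all 6 arrays, so these 2 lists have no settled level. Other lists shifted too, among them the nodulins over clones usable on all 6 arrays. Over all lists, 46 of 227 medians under alternatives moved by at least 1 SD. Fatty acid synthesis had no clone in the top 100 and ran from ACCB-1, a subunit of acetyl-CoA carboxylase, at 73.7 ± 2.5 to KASI, which extends fatty acids in the plastid, at 5.3 ± 4.3. GAPC1 at 67.8 ± 21 was the highest reference gene clone.

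**Figure D5:**
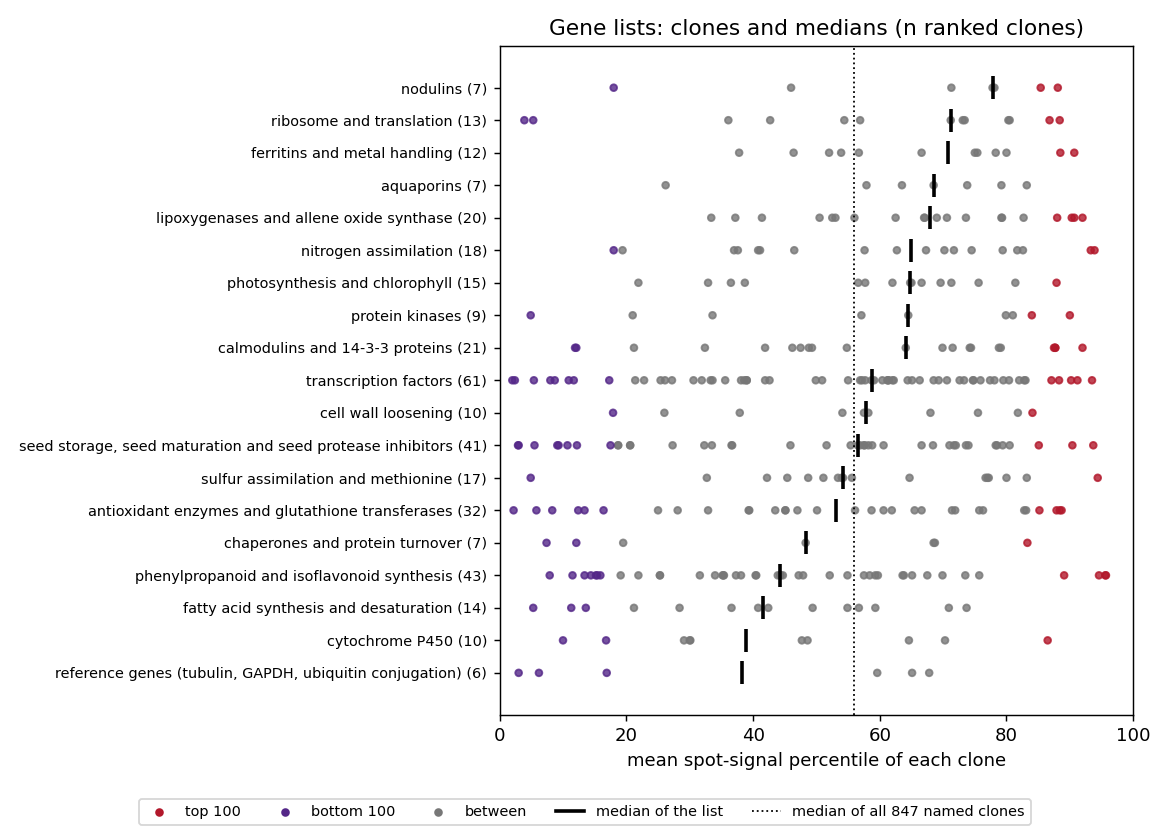
Mean spot-signal percentile (horizontal axis) of every ranked clone in each of 19 gene lists, ordered by list median (black bars), with red for top 100, purple for bottom 100 and grey for other clones. The dotted line is the median of all 847 named clones, 56. The list medians run from 38.3 for reference genes to 77.8 for nodulins, and every list spans a wide part of the scale.

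The lines were then compared. Over all ranked clones, IsoClark and Clark mean percentiles had a Spearman correlation of 0.99, which is a description over clones that share arrays. The limma test of IsoClark minus Clark over the 3 replicates called 0 of 13939 clones at an adjusted p under 0.05 (0% called), and 0 of the 200 members. The smallest adjusted p was 0.785. At an unadjusted p under 0.05 there were 692 clones, or 4.96%, and 2 of the members. On log2 signals after normexp correction and quantile normalization, limma also called 0 clones, with 687 at an unadjusted p under 0.05. Most clones, and most members, lacked a usable array in at least 1 replicate, so the dye swap was not complete for them. Over the 2892 clones usable on all 6 arrays, limma called 0 as well.

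Members with the largest line difference were the following. In the top 100, SOYCTA differed by -8.3 ± 10, LOXB1 by -7.4 ± 12.6, CYP93E1 by -6.5 ± 5.5, SFERH-2 by -6.4 ± 7.7 and LOC547643 by -6.1 ± 3.5 percentile points, IsoClark minus Clark (SD, n = 3). In the bottom 100, CDC48 differed by -7.2 ± 4.2, LOC547975 by 7 ± 7.9, PDIS-2 by -6.7 ± 10, CHI2-A by 6.2 ± 7.7 and GF14A, a 14-3-3 protein, by -6.2 ± 6.7. The adjusted p from limma was at least 0.785 for each. If the dyes of the replicate 2 array with IsoClark in Cy5 were read the other way round, the differences of SOYCTA, LOXB1, SFERH-2, LOC547643 and CHI2-A changed sign. Those of LOXB1 with ranks taken within print blocks and of GF14A without spot flags changed sign too.

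In the top 100, 76 clones had a lower mean in IsoClark than in Clark, against 50.4% of all ranked clones, and 23 were lower in 3 of 3 replicates, against 13.9% of all. Their median difference over replicates 1 to 3 was -0.96, -2.95 and -0.25. The gap between lines was widest on the array that stands apart, where the median of the top 100 was 76.4 in the IsoClark channel and 85.1 in the Clark channel, against 92 to 93.8 in both on the other 5 arrays. Without that array, 45 of the 78 top clones that remained were lower in IsoClark, against 49.3% of all clones. In the bottom 100, 57 were lower in IsoClark, and without that array 59 of the 97 that remained, or 60.8%.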

How the data were processed

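Root RNA of IsoClark and Clark was labelled with Cy3 and Cy5, 90 ug per labelling, and hybridized to spotted cDNA arrays of 19200 positions. Spots were quantified by the authors in ImaGene 6.1.0 after scanning, and the deposited intensity values are the mean and median signal of each spot and its local background, on a linear scale and without background subtraction. Flags for empty (2) and poor (3) spots are also as deposited by the authors and apply to both channels. The deposited table of ratios per array was read as log2, although its log base, centring and direction are not given in the sources used here, and it served only to match its rows to the printed clones. Aligned with the scanner values, its rows correlated at a mean absolute r of 0.904 to 0.95 per clone set. For 1 array of replicate 3 these ratios run opposite to the dyes in the label.

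Gene symbols came from the platform annotation, which gave 1158 rows with 1 symbol and 13 with several. Rows with several symbols were left out, as were blank and empty positions and poor spots, and a clone was ranked only with a usable spot in each replicate. Spots of a clone were averaged. The usable arrays of a swap pair were averaged before any test, so that n is 3. Only 2892 of 13939 ranked clones were usable on all 6 arrays. For the others, at least 1 replicate value rests on 1 array, where line and dye cannot be told apart. Line differences were tested with limma 3.58.1 in R 4.3.3 over all ranked clones, with the lines paired because both were hybridized to each array, and p-values were adjusted by Benjamini-Hochberg. The steps were tested on simulated data. Replicate 1 arrays were quantified on another day than those of replicates 2 and 3, and each day holds both lines, so that the values of each replicate are values within a day.

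The members and the gene lists were chosen with earlier results of these data known. Lists were matched by symbol alone, since no product names were in the tables used. Named clones are the 25 brightest and 15 dimmest, the pair on each side of a limit, the highest and lowest of each list, the genes whose clones range most (5) and least (3), the 5 with the largest SD, and the 5 at each end with the largest line difference. Other clones of these genes and lists were named after their values were seen. Alternatives changed the signal measure, background, flags, print blocks, dyes, arrays and replicates.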

Additional observations from a re-analysis of the deposited data

Results flagged for a closer look

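The replicate 2 array with IsoClark in Cy5 lay far from the other 5 arrays in 3 of 7 measures that were compared over the 6 arrays by the gap to the nearest array, a comparison that chance meets in about 1 of 20 groups. Its mean Spearman correlation with the other arrays was 0.433. The median percentile of the top 100 on it was 76.4 in the IsoClark channel and 85.1 in the Clark channel. The top 100 were chosen on these same ranks, and the 2 channels share 1 array. These 2 measures are therefore not independent of the correlation or of each other, and the share of 1 of 20 does not apply to them. The median of the bottom 100 on it, 6.08 in the IsoClark channel and 5.7 in the Clark channel, did not stand apart.

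Positions named Empty in the print layout were outside the comparisons of clones. Of 167 such positions, 24 had a mean percentile over 50, against 0 of 384 positions named Blank.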

How the results depend on the processing

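Both ends kept most of their clones when the ranking used the signal median, 1 dye only or signals without background subtraction, with 93 to 99 of the top 100 and 93 to 95 of the bottom 100 kept. Ranks within print blocks kept 74 and 84, ranks without flags 82 and 73, and ranks without the replicate 2 array with IsoClark in Cy5 73 of 78 and 90 of 97 that could be ranked. Leaving out 1 replicate kept 78 to 86 of the top and 79 to 89 of the bottom 100. With empty-flagged spots left out, 5 of the bottom 100 were kept, the number that could still be ranked. With usable spots on all 6 arrays, 187 named clones remained, 24 of the top and 22 of the bottom 100 were kept, the bottom median was 7.8, and 7 gene lists lay above the median of named clones, against 12. Without flags the bottom median was 14.1.

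Genes whose clones ranged more than their replicates numbered 123 without flags, 39 with empty-flagged spots left out and 3 with all 6 arrays, where other numbers of genes had 3 ranked clones. These counts, those over genes with exactly 3 clones, those against Blank positions alone, and the counts of members lower in IsoClark without the array that stands apart were added after seeing the data. The root-set difference stayed above 0, from 4.3 with empty-flagged spots left out to 13.5 without replicate 1. Gm-r1083 alone gave 3.1.

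The line test called 0 clones under every alternative, among them the fit without pairing, which ignores the replicate block and called 0. With the dyes of the replicate 2 array with IsoClark in Cy5 turned, the line difference changed sign for SOYCTA (4.2), LOXB1 (7.2), SFERH-2 (3.3), LOC547643 (0.6) and CHI2-A (-4.1). It also changed sign for LOXB1 within print blocks (0.1) and for GF14A without flags (1.8). The cause was not tested. Of 841 values of named clones under alternatives, 782 stayed within 1 SD, and of 227 list medians 181 did. Saturation at the bright end and the blank level at the dim end limit the order.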
